A study of Mus musculus with 29 samples.

Results

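Activity-dependent immediate early genes are switched on within minutes of neuronal firing, without new protein synthesis, and 10 of them were followed here among the 25746 genes of the count files: Egr1, Egr2, Egr3, Egr4, Fos, Fosb, Junb, Nr4a1, Npas4 and Arc. All 10 passed the filter on low counts. They were chosen by name, after measured values of these data were known: the difference between the stroke responses of NSG and wildtype (WT) mice had drawn attention to Egr1 and Nr4a1. Members' values in WT and NSG mice without tacrolimus are therefore given as a description, with no test. Members are tested only between groups that this difference did not use, with the spread estimated from all 29 mice. Related genes are tested in all comparisons, but their lists were drawn up with results of the same samples known, so their counts are not independent evidence. The data are RNA sequencing counts from brain tissue of 29 mice, aged 3 months and in 8 groups. Stroked mice had a photothrombotic stroke, a light-induced clot of the cortical vessels, and tissue around the lesion was taken 21 days later. The non-stroked groups are 4 WT mice of C57BL/6 background, 3 Rag2-/- mice, in which T and B lymphocytes do not mature, and 4 NSG mice of NOD background, in which NK cells are missing as well. Without drug, 4 WT, 3 Rag2-/- and 3 NSG mice had a stroke. A further 3 stroked WT mice had tacrolimus from day 0 (WT-Tacr acute) and 5 had it from day 7 (WT-Tacr delayed). Tacrolimus was given by a subcutaneous pump and blocks calcineurin. For the non-stroked samples the study's methods name the contralesional side of the brain and its results name naïve mice, so the source of these samples is not settled, and stroke, hemisphere and animal handling cannot be told apart there. The difference between strains in the NSG comparisons cannot be told apart from the NOD background. Sample names give 2 cohorts, Imm2 (20 mice) and TF (9 mice); all non-stroked, Rag2-/- and NSG samples are Imm2 and all WT-Tacr delayed samples are TF.

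When a neuron fires, calcium enters through NMDA receptors and voltage-gated channels and activates kinases and calcineurin. These act on factors already bound at the promoter, namely SRF with its partners at the CArG box and CREB at the cAMP response element. The resulting transcripts are short-lived, so their level depends on the time since the last stimulus. Egr1 to Egr4 are zinc finger transcription factors, Fos, Fosb and Junb form the AP-1 factor, Nr4a1 is an orphan nuclear receptor, and Npas4 is a neuron-specific factor that responds to calcium. Arc is an effector at the synapse, where it promotes the uptake of AMPA receptors. Glia and vessel cells can also express Egr1, Fos, Junb and Nr4a1 after injury.

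To show where these signals meet the genes, 4 promoters are printed, chosen because their genes carry results below and their windows lie outside annotated exons. RefSeq windows on GRCm38.p6 were at hand for 7 of the 10 members (11 windows), and not for Egr1, Egr3 and Arc. Each run covers the bases from 250 to 11 before the start of transcription. Capitals mark TGACG, the core of the cAMP response element, on either strand (CGTCA on the other strand), the CArG box by its usual definition, and TATAAA on the printed strand.
Fos, chr12:85473640-85473879, plus strand: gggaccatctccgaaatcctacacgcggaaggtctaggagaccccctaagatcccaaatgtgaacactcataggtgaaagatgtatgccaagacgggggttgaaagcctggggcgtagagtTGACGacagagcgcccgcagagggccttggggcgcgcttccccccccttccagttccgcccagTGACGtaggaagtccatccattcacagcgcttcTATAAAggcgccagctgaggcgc
Egr2, chr10:67537619-67537858, plus strand: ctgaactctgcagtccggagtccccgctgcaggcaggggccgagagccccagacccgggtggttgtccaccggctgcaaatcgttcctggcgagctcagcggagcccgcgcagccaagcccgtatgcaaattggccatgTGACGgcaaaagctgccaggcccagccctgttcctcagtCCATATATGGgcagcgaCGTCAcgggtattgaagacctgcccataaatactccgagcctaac
Nr4a1, chr15:101266596-101266835, plus strand: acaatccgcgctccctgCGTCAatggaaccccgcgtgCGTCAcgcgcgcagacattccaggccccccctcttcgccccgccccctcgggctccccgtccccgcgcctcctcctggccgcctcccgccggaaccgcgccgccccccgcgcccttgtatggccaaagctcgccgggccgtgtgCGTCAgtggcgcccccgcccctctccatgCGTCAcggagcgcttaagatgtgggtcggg
Egr4, chr6:85513600-85513839, minus strand: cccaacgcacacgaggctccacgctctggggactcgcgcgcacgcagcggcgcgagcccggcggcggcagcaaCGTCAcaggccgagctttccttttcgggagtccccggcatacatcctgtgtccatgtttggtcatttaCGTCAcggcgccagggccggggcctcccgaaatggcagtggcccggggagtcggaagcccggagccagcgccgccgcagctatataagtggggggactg
The Fos window holds TGACG at 129 to 125 and at 66 to 62 bases before the start and TATAAA at 33 to 28. The Egr2 window has a CArG box at 72 to 63 bases before the start, flanked by TGACG at 111 to 107 and its reverse at 55 to 51. Nr4a1 carries the reverse CGTCA at 4 places, from 233 to 36 bases before the start, and Egr4 carries it at 177 to 173 and at 109 to 105. All 7 members with a window held TGACG on either strand, in 9 of the 11 windows, while 17.8% of 32851 RefSeq promoter windows of this length do. The CArG box was found in 4 windows, all of Egr2, and is in 1.47% of all windows. Of these, 3 windows overlap and share the site printed above, and the other holds a different site further upstream in the gene region. TATAAA, sought on either strand for these counts, was in Fos alone and is in 12.4% of all windows. The full 8-base palindrome of the cAMP response element was in 0 of the 11 windows and in 1.55% of all. These matches describe letters and not occupied sites. Bases more than 250 before these starts, and the promoters of Egr1, Egr3 and Arc, were not searched. A motif not found here can therefore still lie near the gene.

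Total counts ran from 17789044 to 29928311 per mouse in the TF cohort and from 32507506 to 43403413 in Imm2. Brain tissue was evident in every group from the neuron markers, whose summed level over 10 genes was 5902 CPM at the lowest (CPM is the count in 1000000 counts of the TMM-adjusted library). Rag2 itself had 0 to 2 counts in every group and checks no label, while B230118H07Rik had at most 4 counts in the Rag2-/- mice and at least 274 elsewhere. Counts of Ddx3y, a gene on chromosome Y, split the mice into 15 males (over 100 counts) and 14 females: the non-stroked WT and NSG mice were all male, all TF mice female, and the other groups mixed. In stroked WT mice sex and cohort coincide. Striatal markers (7 genes) varied within groups, from 268 to 1770 CPM in non-stroked NSG mice and from 251 to 480 CPM in non-stroked WT mice. Choroid plexus markers (6 genes) varied more, from 4.79 to 1585 CPM over all mice. The part of dissection, cohort and sex in the values below was not tested beyond the alternatives given beside them.

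Per kilobase of exon, the mean level over the 29 mice was 93.7 CPM for Egr1 and 91.5 CPM for Arc. Egr3 (49.9), Nr4a1 (35.2) and Junb (32.7 CPM per kilobase) were intermediate, and Fos (13.2), Egr4 (10.2), Npas4 (8.15), Egr2 (3.50) and Fosb (3.48) low. Across groups, 8 of the 10 members had their highest group mean in non-stroked WT mice, and Junb and Npas4 had it in non-stroked Rag2-/- mice. For 9 members the non-stroked WT and Rag2-/- groups took the 2 highest places, and for Fosb the stroked NSG group came between them. These 2 top groups did not differ beyond their SD for any of these 9. The gap to the third place exceeded the larger SD for Egr1 and Egr3. Further down, neighbours differed by more than the larger SD for Egr4, Fos, Junb and Nr4a1, each at the step below stroked NSG mice, and for Egr4 also between stroked Rag2-/- and stroked WT mice.

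**Figure D1:**
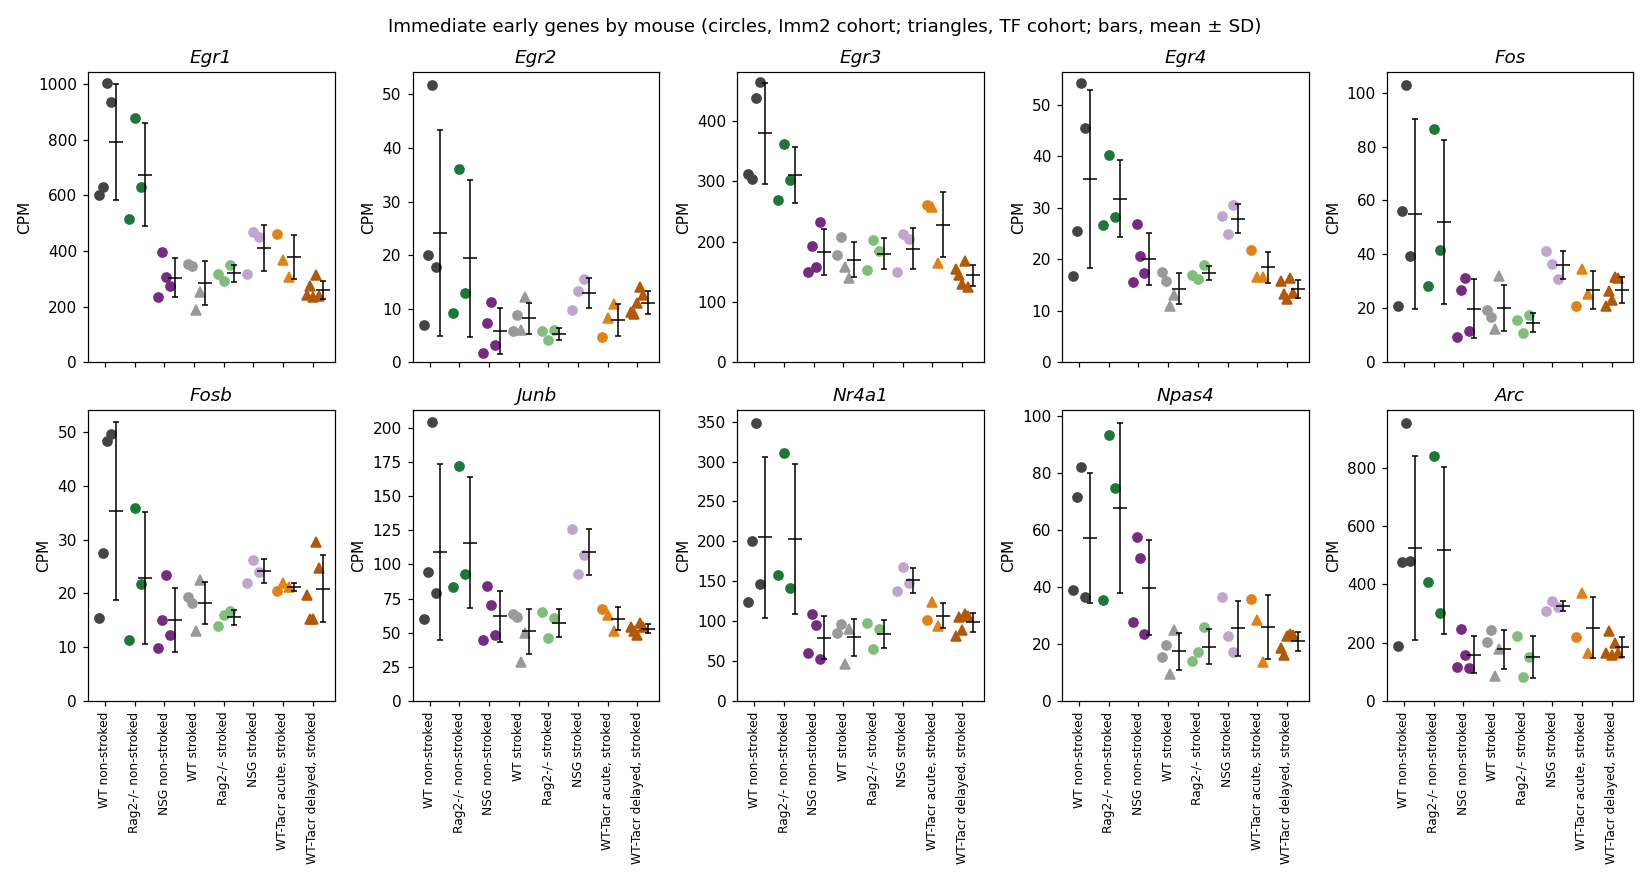
Each panel shows a member's CPM (y axis, from 0) in every mouse by group (x axis), with circles for the Imm2 and triangles for the TF cohort and a black bar for mean ± SD. For Egr1 the non-stroked WT mice (600 to 1004 CPM) and Rag2-/- mice (514 to 877 CPM) lie above every mouse of the other 6 groups (189 to 467 CPM).

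Egr1 (chr18:34859823-34864984 on GRCm38, plus strand), a transcription factor that follows recent neuronal activity, was at 600, 630, 1004 and 937 CPM in the 4 non-stroked WT mice and at 514, 877 and 630 CPM in the 3 non-stroked Rag2-/- mice. In non-stroked NSG mice it was at 234, 398, 308 and 275 CPM. After stroke WT mice had 355, 345, 189 and 252 CPM, Rag2-/- mice 318, 291 and 350 CPM, and NSG mice 316, 467 and 450 CPM. The non-stroked WT and Rag2-/- mice are thus the high groups, and non-stroked NSG mice lie in the range of stroked mice. Egr3 (chr14:70077203-70082614), which acts with Egr1 on synaptic genes, showed the same division, with 303 to 464 CPM in WT and 268 to 361 CPM in Rag2-/- mice of the non-stroked groups and 125 to 261 CPM in the other 6 groups together. Egr2 (chr10:67535475-67542188), also known for its role in myelinating cells, was scarce and variable, at 7.0, 20.0, 51.7 and 17.7 CPM in non-stroked WT and at 1.67, 7.41, 11.2 and 3.28 CPM in non-stroked NSG mice. Its stroked WT mice (5.86 to 12.1 CPM) overlapped both. Egr4 (chr6:85511121-85513589) had 16.8 to 54.2 CPM in non-stroked WT, 15.6 to 26.9 in non-stroked NSG and 24.8 to 30.5 CPM in stroked NSG mice.

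Of the AP-1 genes, Fos (chr12:85473890-85477273), widely used as a marker of recent neuronal activity, was at 20.8, 56.1, 103 and 39.4 CPM in non-stroked WT and at 28.1, 86.5 and 41.8 CPM in non-stroked Rag2-/- mice. It was at 9.53, 26.7, 31.4 and 11.5 CPM in non-stroked NSG mice. After stroke WT mice had 19.3, 16.9, 12.4 and 32.1 CPM of Fos, Rag2-/- mice 15.7, 10.8 and 17.6 CPM, and NSG mice 41.1, 36.3 and 30.8 CPM. Stroked NSG mice thus lay above stroked Rag2-/- mice without overlap, whereas the stroked WT values reached into the NSG range. Junb (chr8:84974484-84978718), a partner of Fos, had 60.0 to 204 CPM in non-stroked WT, 44.8 to 83.9 in non-stroked NSG, 28.4 to 63.7 in stroked WT and 93.1 to 126 CPM in stroked NSG mice. Junb overlaps Prdx2 on the opposite strand, and whether counting used strand is not stated. Fosb (chr7:19302696-19310051), whose product builds up with repeated stimulation, ranged from 15.5 to 49.6 CPM in non-stroked WT mice, a range that overlaps every other group.

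Nr4a1 (chr15:101254269-101274795) was at 124, 200, 349 and 146 CPM in non-stroked WT and at 59.8, 109, 95.6 and 52.6 CPM in non-stroked NSG mice, without overlap. After stroke it was at 85.6, 96.5, 46.2 and 89.7 CPM in WT and at 138, 168 and 148 CPM in NSG mice. The order of the 2 strains was thus opposite in stroked and non-stroked tissue, again without overlap. Arc (chr15:74669083-74672570) was at 190, 476, 954 and 481 CPM in non-stroked WT mice, while the Rag2-/- mice had 408, 843 and 302 CPM and NSG mice 116, 248, 157 and 112 CPM. Stroked WT mice had 202, 244, 84.8 and 178 CPM, Rag2-/- mice 222, 80.3 and 149 CPM, and NSG mice 310, 344 and 323 CPM, so the 3 stroked NSG mice differed little from one another (SD 17.4 CPM) and lay above all stroked mice without drug. Npas4 (chr19:4984355-4990316) had another order: 39.1, 71.6, 82.2 and 36.5 CPM in non-stroked WT, 27.8, 57.6, 50.2 and 23.6 in non-stroked NSG and 36.4, 22.9 and 17.3 CPM in stroked NSG mice. It was the sole member with a lower mean in stroked than in non-stroked NSG mice.

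In WT mice all 10 members were lower after stroke, with a median log2 fold change of -1.40 against -0.00 over all 17031 genes tested. Npas4 had the largest difference (log2 fold change -1.72 ± 0.365 SE, 3.29-fold lower), followed by Arc (-1.57 ± 0.404), Egr2 (-1.56 ± 0.50) and Egr1 (-1.47 ± 0.213, 2.78-fold lower). Fosb had the smallest (-0.95 ± 0.318). The ranges of Egr1, Egr3, Nr4a1 and Npas4 did not overlap between stroked and non-stroked mice, 4 of 10 members beside 29.8% of all genes, a share from which nothing is read since the choice of members used these samples. Among the stroked WT mice, replicate 3 of the TF cohort was lowest for 8 members, and without it the median was -1.23. Within the Imm2 cohort, which holds 2 of the 4 stroked mice, all 10 stayed below 0 with a median of -1.17. Without non-stroked replicate 4, the mouse with the highest value for 8 members, the differences ran from -1.49 to -0.61. Choroid plexus markers were at 816 CPM in that mouse and 442 CPM in replicate 5, the 2 mice with the highest summed member level, against 10.5 and 6.96 CPM in replicates 1 and 3. Neuron markers (10 genes) had a median log2 fold change of -0.35 (range -0.81 to 0.24) and a summed level of 6650 to 8545 CPM in stroked against 9453 to 10398 CPM in non-stroked WT mice. Cortical projection neuron markers (10 genes) were at 647 to 999 against 1194 to 1360 CPM, and the heat shock list of 6 genes, itself quick to respond to handling and temperature, at 1097 to 1227 against 1390 to 1643 CPM. Microglia and macrophage markers (8 genes) were at 366 to 467 against 185 to 218 CPM. None of these sums overlapped between stroked and non-stroked WT mice. In bulk tissue fewer neurons and less RNA per neuron cannot be told apart, and the part of cell content, dissection and handling in the members' difference was not tested.

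Rag2-/- mice give a test between groups outside the NSG against WT difference that drew attention to Egr1 and Nr4a1. Its spread is estimated from all 29 mice, WT and NSG mice included. The members were chosen with earlier results of these data known, so the test is not fully independent of their choice. There 6 of the 10 members were called lower in stroked than in non-stroked mice, beside 0.112% of all genes called lower and 4.22% called higher (called means an adjusted p below 0.05 by edgeR's quasi-likelihood test with Benjamini-Hochberg adjustment and an absolute log2 fold change above 1). Egr1 fell by 1.08 on the log2 scale (SE 0.244, edgeR adjusted p = 0.00625) and Npas4 by 1.83 (SE 0.421, edgeR adjusted p = 0.00695). Npas4 was at 35.3, 93.6 and 74.7 CPM in the non-stroked and 14.1, 17.2 and 26.0 CPM in the stroked mice, with no overlap. Fos fell by 1.83 (SE 0.478, edgeR adjusted p = 0.0174), Nr4a1 by 1.27 (SE 0.334, edgeR adjusted p = 0.0176), Arc by 1.78 (SE 0.469, edgeR adjusted p = 0.0179) and Egr2 by 1.86 (SE 0.589, edgeR adjusted p = 0.0496). Egr3 had a log2 fold change of -0.79 (SE 0.204, edgeR adjusted p = 0.0159), short of the minimum fold change. Egr4 (-0.87), Junb (-1.02) and Fosb (-0.56) had edgeR adjusted p-values of 0.0552, 0.0609 and 0.408. The ranges of 9 members, all but Fosb, did not overlap between the 2 groups, beside 35.7% of all genes. Of the 19 genes called lower in this comparison, 6 were members, and Dusp1 and Ier2 of the related genes below were 2 more.

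These calls rested on non-stroked Rag2-/- replicate 2, which had the highest value of its group for all 10 members. Nr4a1 was at 158, 311 and 141 CPM in the non-stroked and 98.0, 64.6 and 90.1 CPM in the stroked mice, and replicate 2 held the value of 311 CPM. Without that mouse 0 of the 10 members were called by edgeR, with all 10 log2 fold changes still below 0 (-1.52 to -0.08) and 6 genes called lower in all. Its values without the mouse were -0.84 for Egr1 (edgeR adjusted p = 0.0663) and -1.52 for Npas4 (edgeR adjusted p = 0.0536). Leaving out stroked replicate 1 or 2 left 2 member calls each, of 6 and 14 genes called lower in all. Non-stroked replicate 2 was female by Ddx3y. With sex as a covariate edgeR called 6 members lower, of 39 genes called lower in all, against 19 in the main fit. With the compared groups fitted alone edgeR called 7 members lower, of 35 genes called lower in all. Males alone (1 non-stroked, 2 stroked mice) leave little power, with 2 of 17364 genes called lower and none of them a member, and the member log2 fold changes ran from -1.78 (Npas4) to -0.40 (Fosb), with Egr1 at -0.97. Neuron markers had a median log2 fold change of -0.28 here (range -0.47 to -0.07), none of them called. Their summed level was 6959 to 8583 CPM in stroked and 9324 to 9720 CPM in non-stroked mice, and that of the heat shock list 1074 to 1158 against 1284 to 1352 CPM, both without overlap. Choroid plexus markers were at 1585 CPM in stroked replicate 1 and at most 12.3 CPM in the other 5 mice. The part of these in the members' difference was not tested.

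In NSG mice the direction was the other way for most members. After stroke 9 of 10 were higher and Npas4 lower, with a median log2 fold change of 0.74 against 0.03 over all genes. Egr2 (1.12 ± 0.533 SE), Arc (1.04 ± 0.423), Nr4a1 (0.94 ± 0.305) and Fos (0.86 ± 0.430) led, Egr3 was near 0 (0.04 ± 0.190), and Npas4 was at -0.64 ± 0.388. Junb, Nr4a1 and Arc did not overlap between stroked and non-stroked NSG mice, 3 of 10 members beside 25.0% of all genes. Neuron markers had a median log2 fold change of -0.27 (range -0.53 to 0.07), and the heat shock list was at 882 to 1241 CPM in stroked and 873 to 975 CPM in non-stroked mice. Without non-stroked NSG replicate 1, which was lowest for 7 members and highest in choroid plexus markers (1183 CPM), 8 members were above 0 with a median of 0.57. With sex as a covariate 9 were above 0 (median 0.65).

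Among non-stroked mice all 10 members were lower in NSG than in WT, with a median log2 fold change of -1.30 against 0.01 over all genes. Egr2 (-2.03 ± 0.508 SE), Arc (-1.73 ± 0.406), Fos (-1.47 ± 0.407) and Egr1 (-1.38 ± 0.213) differed most, and Npas4 least (-0.53 ± 0.352). Egr1, Egr3 and Nr4a1 did not overlap between the strains, 3 of 10 members beside 21.8% of all genes. All these mice were male and of the Imm2 cohort. Neuron markers differed little here (median log2 fold change -0.08), but the heat shock list was at 873 to 975 CPM in NSG and 1390 to 1643 CPM in WT mice; its part was not tested. Without WT replicate 4 the members ran from -1.34 to -0.30. Non-stroked Rag2-/- against WT mice had a median member difference of -0.12 (from -0.62 for Fosb to 0.24 for Npas4), with overlap for all 10. The share of all genes that overlap is not given there, and overlap is not read as equal levels. This difference also moved with single mice. Without Rag2-/- replicate 2 all 10 members were below 0 (median -0.48, range -1.14 to -0.08). Without WT replicate 4, 7 were above 0 (median 0.38, range -0.43 to 0.58).

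The stroke response of NSG mice minus that of WT mice was above 0 for all 10 members, from 1.08 ± 0.522 (Npas4) to 2.68 ± 0.729 (Egr2) on the log2 scale, with a median of 1.91. This is the contrast from which attention was drawn, and it has no test here. It combines 4 groups: as medians, NSG and WT mice differed by -1.30 among the non-stroked and by 0.74 among the stroked. The same difference for Rag2-/- mice had a median of 0.08, with values from -0.39 ± 0.614 (Fos) to 0.43 ± 0.370 (Egr4). All 10 lay within 2 SE of 0, and the WT samples are shared by both comparisons. The Rag2-/- difference also moved with single mice. All 10 members were above 0 without non-stroked Rag2-/- replicate 2 (median 0.52, range 0.21 to 0.89). Leaving out non-stroked WT replicate 4 instead put 4 members above 0 and 6 below (median -0.31). The median near 0 is therefore not read as equal responses.

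**Figure D2:**
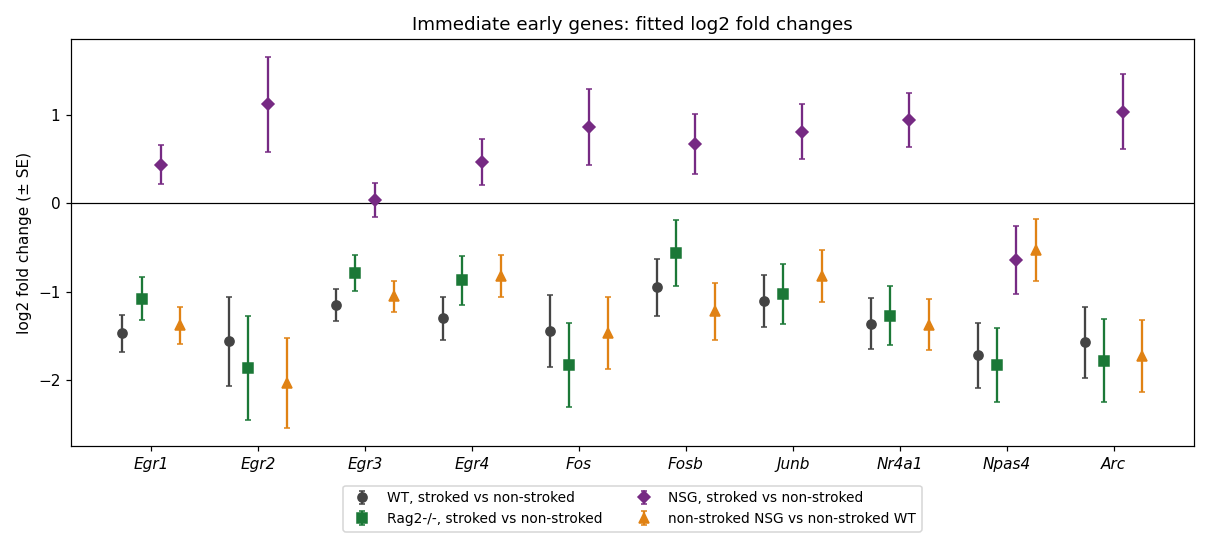
Fitted log2 fold change (y axis, ± SE) of each member (x axis) for stroked against non-stroked mice in WT, Rag2-/- and NSG and for non-stroked NSG against WT. All 10 points lie below 0 in WT, in Rag2-/- and in non-stroked NSG against WT, while 9 of 10 NSG stroke points lie above 0, all except Npas4 (-0.64).

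Tacrolimus blocks calcineurin, which takes part in calcium signalling to these genes. In stroked WT-Tacr acute against stroked WT mice 9 of the 10 members were above 0, with a median log2 fold change of 0.41 against 0.01 over all genes. The largest was 0.57 (Npas4, SE 0.386), and all 10 overlapped. Neuron markers had a median log2 fold change of 0.21 here (range -0.01 to 0.52). Their summed level was 7322 to 9927 CPM with acute tacrolimus and 6650 to 8545 CPM in stroked WT mice. Microglia and macrophage markers were at 236 to 428 against 366 to 467 CPM. The part of cell content in the members' difference was not tested. Within the TF cohort (2 acute and 2 WT mice, all female) all 10 members were above 0, with a median of 0.46 and a range of 0.04 to 0.99. One of these WT mice is stroked replicate 3, the lowest of its group for 8 members. Without it, over both cohorts, 9 members were above 0 with a median of 0.25. These differences have no test here, since the WT samples took part in the choice of members. WT-Tacr delayed against stroked WT mice had a median of 0.13 against 0.01 over all genes (range -0.24 to 0.44), also with overlap for all 10. Within the TF cohort 9 of 10 were above 0, with a median of 0.27. Without stroked WT replicate 3, over both cohorts, 5 were above 0 with a median of -0.03. The share of all genes that overlap is not given for these 2 comparisons, and overlap is not read as equal levels. WT-Tacr delayed and acute mice were compared by a test. By edgeR 0 of the 10 members were called, beside 5.22% of all genes called higher and 0.528% called lower; 2 members had an unadjusted p below 0.05, as did 6003 of the 17031 genes, and DESeq2 called 0. Egr3 came closest, at 261, 257 and 165 CPM with acute and 154, 145, 130, 168 and 125 CPM with delayed tacrolimus, a log2 fold change of -0.66 (SE 0.179, edgeR adjusted p = 0.0152) short of the minimum fold change. Acute replicate 1 is the sole Imm2 mouse of this comparison, and within the TF cohort Egr3 was at -0.51 (edgeR adjusted p = 0.159). Egr1 was at -0.54 (SE 0.213, edgeR adjusted p = 0.0741). Neuron markers had a median log2 fold change of -0.48 here, and choroid plexus markers were at 18 to 865 CPM with delayed and 4.79 to 23.8 CPM with acute tacrolimus; the part of either was not tested.

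Non-stroked mice of the same group differed widely, and mostly together. The ratio of the highest to the lowest mouse had a median over the members of 3.21 for WT, 2.43 for Rag2-/- and 2.14 for NSG mice without stroke. In stroked mice it was 2.08 for WT, 1.46 for Rag2-/- and 1.35 for NSG mice. Non-stroked NSG mice were thus near stroked WT mice in this ratio, which also depends on the number of mice in a group. For Egr2 the non-stroked WT mice spanned 7.38-fold and for Egr1 1.67-fold. Non-stroked WT replicate 4 had the highest value for 8 members and replicate 1 the lowest for 8. Non-stroked NSG replicate 2 was highest for 6 members and replicate 1 lowest for 7. Over the 29 mice, after subtracting group means of log2 CPM, the 45 pairs of members had Pearson r from 0.10 to 0.91 with a median of 0.66. Egr2 with Fos and Junb with Nr4a1 were at 0.91, Nr4a1 with Arc at 0.90. Egr3 stood apart, with a median r of 0.31 to the other members and 0.10 to Fos. These points share libraries within cohorts, and a correlation of this kind is a description.

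**Figure D3:**
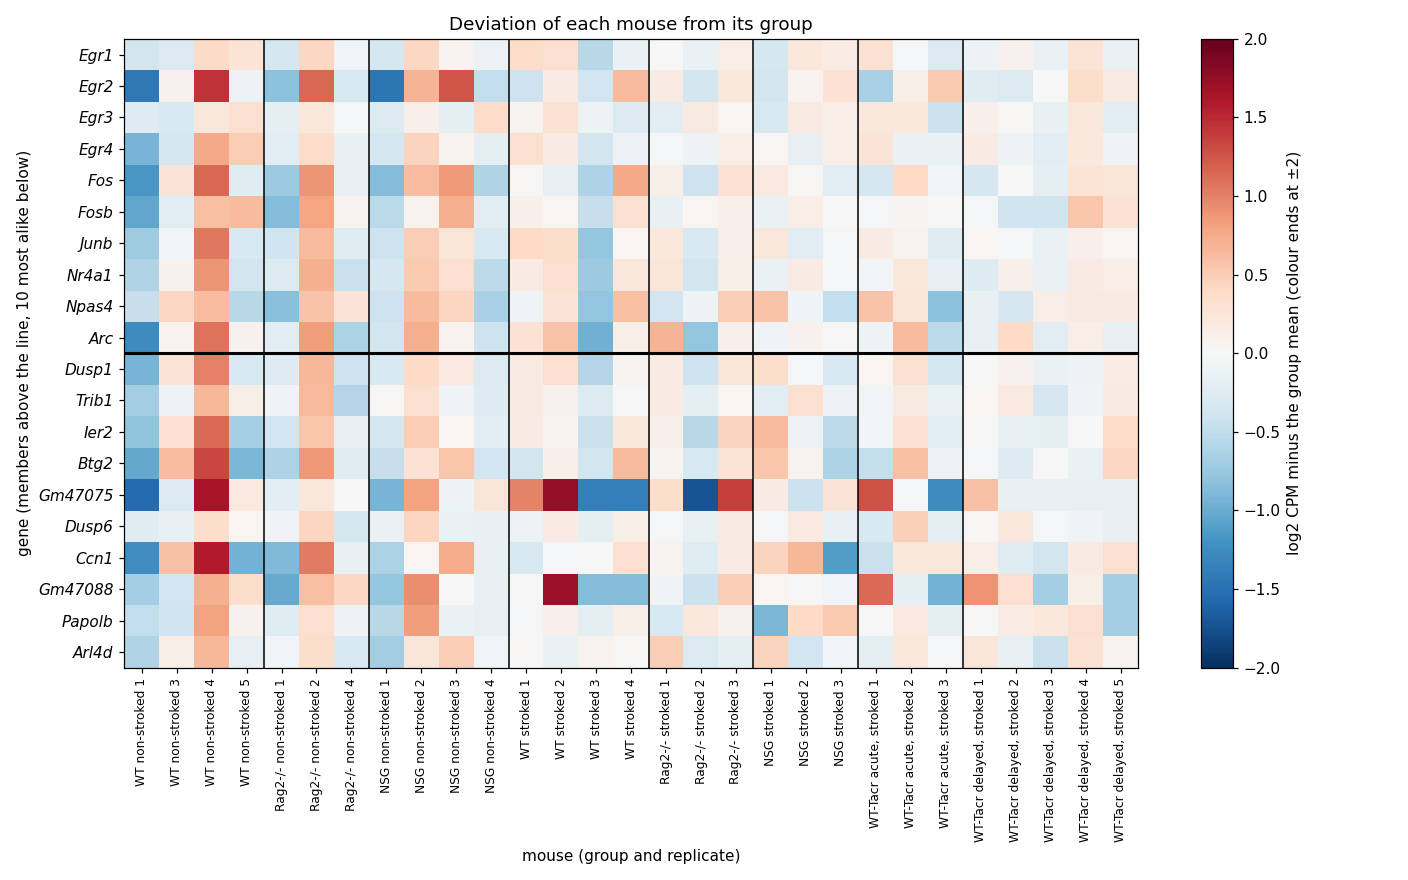
Colours give log2 CPM minus the group mean (red above, blue below, ends at ±2) for the 10 members above the line and the 10 most alike genes below it (rows) in all 29 mice (columns, groups divided by lines). Non-stroked WT replicate 4 and Rag2-/- replicate 2 are red in all members, and non-stroked WT replicate 1 is blue in all.

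The genes whose deviations within groups were most like the members' mean deviation over the 29 mice were Dusp1 (r = 0.86), Trib1 (0.77), Ier2 (0.75) and Btg2 (0.69), followed by Gm47075, Dusp6 and Ccn1 (0.65 each), Gm47088 (0.64), Papolb and Arl4d (0.63 each). Dusp1 and Dusp6 are phosphatases that switch MAP kinases off, and Ier2 and Btg2 are themselves rapid response genes. Within the 20 Imm2 mice Dusp1 kept rank 1 (r = 0.86) and Trib1 rank 2 (0.80). By Spearman correlation Dusp1, Trib1 and Ier2 also held ranks 1 to 3, but Btg2 was at rank 35, Arl4d at 76 and Ccn1 at 118. Gm47075, Gm47088 and Papolb had mean levels of 0.278, 0.204 and 0.331 CPM, where counting error is large. At the other end were Hsf2bp (r = -0.71), 2810408A11Rik (-0.62), Syt15 (-0.61), Trib3 (-0.60), Abcc12 (-0.59), Il11, Tsnaxip1, Prima1 and Trim14 (-0.58 each) and Cd40 (-0.57). Of these only Prima1 (3.53 CPM) and Abcc12 (1.29 CPM) had a mean above 1 CPM, and Trim14 was at rank 115 by Spearman correlation. Dusp1 was at 62.9 ± 36.1 CPM in non-stroked WT mice, with 71.7 ± 31.3 CPM for Rag2-/- and 34.0 ± 8.36 CPM for NSG mice, and after stroke, in this order of strains, at 27.7 ± 6.99, 27.4 ± 6.35 and 60.2 ± 13.8 CPM (SD).

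Other genes of the pathway were taken from 3 lists with 58 genes in all, of which 58 were tested: 19 other rapid regulators, 16 feedback regulators and 23 effectors. After stroke in WT mice 2 of the 58 rose (6.76% of all genes were called higher) and 2 fell (0.540% called lower). Atf3, a stress-responsive factor also known from injured neurons, rose by 2.98 on the log2 scale (SE 0.592, edgeR adjusted p = 0.000754), from 0.559 ± 0.306 to 4.48 ± 2.73 CPM, and the small Maf factor Maff by 1.75 (SE 0.353, edgeR adjusted p = 0.000882). Dusp1 and Ier2 each fell by 1.18 (edgeR adjusted p = 0.00567 and 0.0118). By adjusted p alone, with no minimum fold change, 20 of the 58 were lower (11.6% of all genes were), among them 7 of 23 effectors. The median log2 fold change was -0.36 over the 58 genes. Both falls were lost without non-stroked replicate 4 and within the Imm2 cohort, where Atf3 and Maff were the 2 calls left.

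In Rag2-/- mice Maff (2.16, SE 0.420, edgeR adjusted p = 0.00214) and Atf3 (2.75, SE 0.701, edgeR adjusted p = 0.0146) rose as well, and Dusp1 (-1.39, edgeR adjusted p = 0.0130) and Ier2 (-1.37, edgeR adjusted p = 0.0273) fell. By adjusted p alone 9 of the 58 were lower, beside 1.53% of all genes. Both falls were lost without non-stroked replicate 2. The median over the 58 genes was -0.23. Atf3 and Maff therefore did not follow the members, which were lower in the same mice.

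In NSG mice 8 of the 58 rose after stroke (5.01% of all genes were called higher) and 0 fell (0.470% called lower). Zfp36, which speeds the decay of inflammatory transcripts, rose by 1.61 (SE 0.236, edgeR adjusted p = 8.63e-05), Maff by 2.17 (SE 0.372, edgeR adjusted p = 0.000334) and Dusp5, a nuclear phosphatase for ERK, by 1.49 (SE 0.284, edgeR adjusted p = 0.000838). The other 5 were Atf3 (3.29), Klf4 (1.31), Csrnp1 (1.01), Ptgs2 (1.18) and Ccn1 (1.92). By adjusted p alone 18 of the 58 were higher (13.0% of all genes) and none lower, in 8 of 19 other rapid regulators, 7 of 16 feedback genes and 3 of 23 effectors. Dusp5 was at 6.90 ± 0.920 CPM in non-stroked and 19.4 ± 7.14 CPM in stroked NSG mice, and at 15.2 ± 5.28 and 14.7 ± 3.69 CPM in WT mice. Microglia and macrophage markers were at 243 to 280 CPM in non-stroked and 370 to 517 CPM in stroked NSG mice, and the part of such cells in these rises was not tested. With males alone, which leaves 1 stroked mouse, 1 of the 58 was called.

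Among non-stroked mice 0 of the 58 were higher in NSG than in WT (1.91% of all genes were called higher) and 4 were lower (1.45% called lower). These were Trib1, a pseudokinase (-1.23, SE 0.229, edgeR adjusted p = 0.000550), Dusp5 (-1.14, SE 0.269, edgeR adjusted p = 0.00583), Cort, a neuropeptide of interneurons (-1.04, SE 0.252, edgeR adjusted p = 0.00739), and Ptgs2 (-1.13, edgeR adjusted p = 0.00949). By adjusted p alone 17 of the 58 were lower, beside 4.92% of all genes. The count of 4 became 10 without WT replicate 1 and 2 without WT replicate 4. Of the 58 genes 0 were called by edgeR in non-stroked Rag2-/- against WT mice, where 0.00587% of all genes were called lower; 2 had an unadjusted p below 0.05, as did 349 of all genes, and DESeq2 called 0.

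For the stroke response of NSG against that of WT mice edgeR called 0 of the 58 and 0.0117% of all genes. An unadjusted p below 0.05 was found for 31 of the 58 and 2167 of all 17031 genes. DESeq2 called 14 of the 58, all higher in NSG, and 69 of all genes. The median over the 58 was 0.64. Without stroked NSG replicate 3 edgeR called 16, without non-stroked WT replicate 1 it called 5, and with sex as a covariate it called 2. Replicate 3 was the sole male of the stroked NSG mice, so without it stroke and sex coincide in NSG mice. The share of all genes called is not given for these 3 fits. Against stroked WT mice 0 of the 58 were called by edgeR with acute tacrolimus (0% of all genes called, 12 of the 58 and 2168 of all with an unadjusted p below 0.05, DESeq2 0) and 0 with delayed tacrolimus (0% of all genes, 14 of the 58 and 3455 of all unadjusted, DESeq2 0). Delayed against acute tacrolimus gave 2 higher genes, Maff (1.42, SE 0.358, edgeR adjusted p = 0.0123) and Atf3 (1.80, SE 0.570, edgeR adjusted p = 0.0286). Atf3 was at 0.487 to 7.07 CPM with acute and 6.68 to 14.0 CPM with delayed tacrolimus. By adjusted p alone 8 of the 58 were lower, beside 9.96% of all genes. Neither Maff nor Atf3 was called within the TF cohort.

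**Figure D4:**
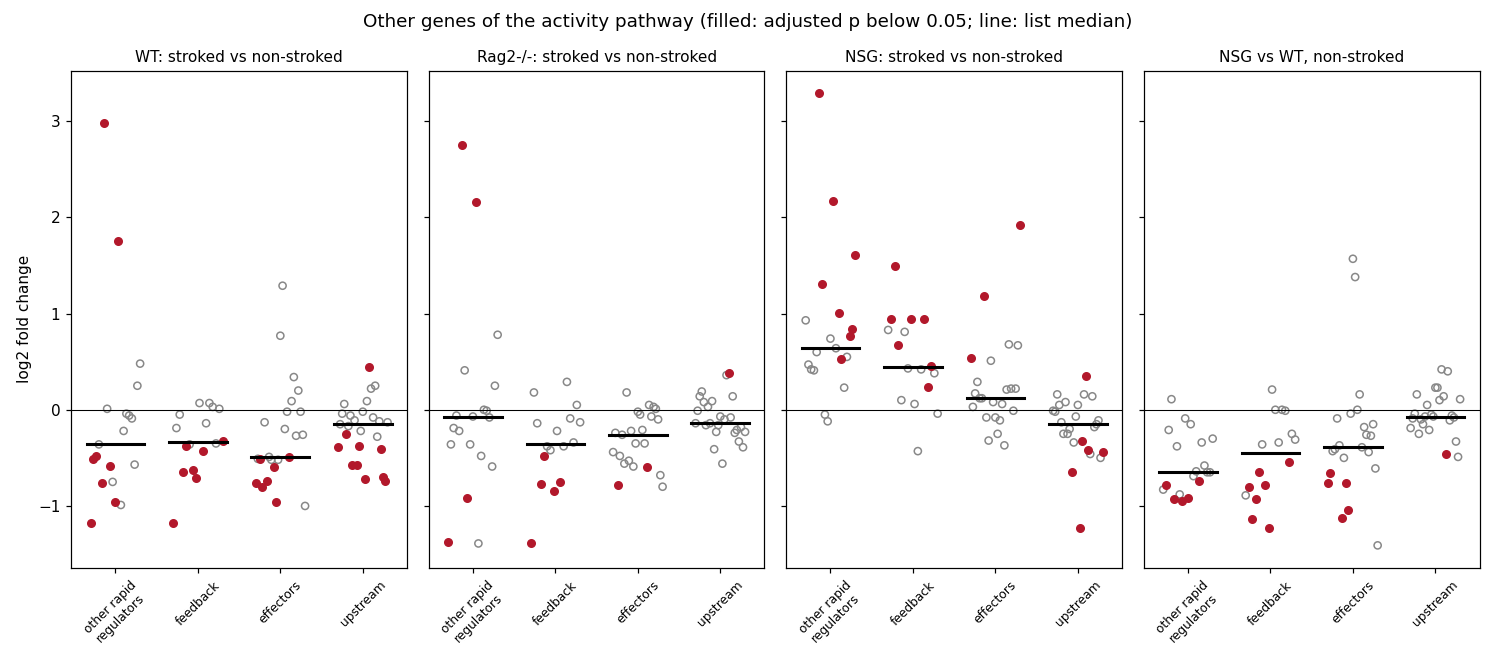
Fitted log2 fold change (y axis) of each gene in the 3 lists of other activity-regulated genes and the upstream list (x axis), for 4 comparisons; filled points have an edgeR adjusted p below 0.05 and lines give list medians. The median of the other rapid regulators after stroke is -0.36 for WT, -0.08 for Rag2-/- and 0.64 for NSG mice, and -0.65 in non-stroked NSG against WT mice.

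The 25 genes upstream of the members, which encode receptors, kinases, calcineurin subunits and promoter-bound factors, had medians nearer to 0. Their median log2 fold change after stroke was -0.15 for WT, -0.14 for Rag2-/- and -0.15 for NSG mice, and -0.07 in non-stroked NSG against WT mice. In WT and Rag2-/- mice 0 of the 25 were called by edgeR after stroke, with 12 and 5 at an unadjusted p below 0.05 beside 6709 and 3691 of all 17031 genes, and in NSG mice Camk4, a calcium-dependent kinase that acts on CREB, fell by 1.23 (SE 0.187, edgeR adjusted p = 0.000107). Camk4 was at -0.72 (edgeR adjusted p = 0.00302) in WT and -0.56 (edgeR adjusted p = 0.0761) in Rag2-/- mice, short of a call in both. By adjusted p alone 9 of the 25 were lower in stroked WT mice (11.6% of all genes) and 1 higher (15.2%), 5 were lower in stroked NSG mice (8.89%) and 1 higher (13.0%), and 0 were lower (1.53%) and 1 higher (6.71%) in stroked Rag2-/- mice.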

How the data were processed

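RNA was taken from peri-infarct tissue and from non-stroked brain tissue of 29 mice, each deposited as its own sample. The study's methods state polyA selection, a stranded kit, and alignment and counting by a core facility. Values are raw counts per Ensembl gene as deposited by the authors, in 1 file per sample; the aligner, the genome build and the use of strand in counting are not given in the sources used here. Groups come from the genotype and treatment labels and the names of the samples, and replicate numbers from those names, so some numbers are skipped. GENCODE M21 (GRCm38) supplied symbols and coordinates for 25712 of the 25746 IDs.

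The counts entered edgeR 4.0.16 under R 4.3.3. After TMM scaling and filterByExpr on the groups, 17031 genes were fitted by quasi-likelihood in 1 model of all 8 groups, which share an estimate of the spread. P-values were adjusted by Benjamini-Hochberg over all genes of a comparison. A call needs an adjusted p under 0.05 together with a log2 fold change over 1 in size, and SE is the absolute log2 fold change divided by the square root of F. CPM uses TMM-adjusted library sizes, and log2 CPM a prior count of 2. Total counts per mouse are given above, and levels below 1 CPM carry the largest counting error. The members and lists were chosen with earlier results of these data known. All 10 members were reported. Of the 58 related genes, the 3 called genes with the smallest p per comparison and direction were named; the remaining named genes of those lists were chosen after their values were seen. Likeness used the 10 genes with the highest and the 10 with the lowest Pearson r. The alternatives tried were DESeq2 1.42.0, RLE scaling, looser and stricter low-count filters, a cohort term, each cohort or the compared groups alone, calls without a fold threshold, blocking on replicate number, and each mouse left out; sex as a covariate and males alone were added after seeing the data. The fitting step was tested on simulated data. Whether the mice of a group shared a litter or cage is not stated, and p-values measure the spread between these samples.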

Additional observations from a re-analysis of the deposited data

Results flagged for a closer look

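For 8 of the 10 members every stroked WT mouse lay below the mean of the non-stroked WT mice and every stroked NSG mouse above the mean of the non-stroked NSG mice, on the log2 CPM scale. The stroke effect in NSG minus that in WT mice, on the log2 scale, was 1.91 for Egr1, 2.68 for Egr2, 1.77 for Egr4, 2.31 for Fos, 1.62 for Fosb, 1.91 for Junb, 2.30 for Nr4a1 and 2.61 for Arc. The difference was not tested for these genes, since it took part in their choice. The share of all genes that meet the same rule is not given here, so nothing is read from the count of 8. In 40 groups of 4 or 5 mice examined for the 10 members, 0 held a mouse far enough from the others to pass Dixon's 95% criterion. So few mice give this criterion little power, and the members vary together. Smaller groups, among them the non-stroked Rag2-/- mice, were not examined, so the result does not show that no mouse drives a difference.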

How the results depend on the processing

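Member calls for stroke in Rag2-/- mice (6) stood at 0 with males alone, where 1 non-stroked mouse is left, 2 genes in all were called lower and the members' median was -0.91 (-1.17 with all mice), and ran from 0 to 6 when mice were left out in turn, with 0 of 150 member values changing sign. Delayed against acute tacrolimus (0 members) gave 1 member with no minimum fold change, and some values near 0 changed sign there: Fos to 0.00 with RLE normalization, 0.01 with a mean of at least 1 CPM, 0.02 with the groups compared alone and between -0.18 and 0.20 with mice left out, Fosb between -0.18 and 0.07 with mice left out, and Npas4 to 0.03 within the TF cohort. Counts over the 58 related genes with no minimum fold change were 22 for stroke in WT, 18 in NSG, 11 in Rag2-/- mice, 17 for non-stroked NSG against WT and 10 for delayed against acute tacrolimus. With males alone they were 2, 1 and 1 for stroke in WT, NSG and Rag2-/- mice, and within the Imm2 cohort 2 in WT mice; with sex as a covariate 5 for NSG stroke and 2 for the NSG against the WT response, where DESeq2 gave 14. Within the TF cohort and with the groups compared alone, delayed against acute tacrolimus gave 0. Leaving out mice in turn gave 2 to 7 in WT, 5 to 12 in NSG and 2 to 5 in Rag2-/- mice after stroke, 2 to 10 for non-stroked NSG against WT, 0 to 16 for the NSG against the WT response, 0 to 1 for acute tacrolimus against WT stroke and 0 to 3 for delayed against acute tacrolimus. Where a call changed, the cause was not tested; males alone and left-out mice also reduce the number of samples.

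Replicate numbers are shared by non-stroked groups, but same-numbered mice did not deviate together (r of -0.258, 0.108 and -0.135 for NSG with WT, 0.0775 and 0.0826 for Rag2-/- with WT). The numbers are therefore taken as sample names and not as pairs. So few values cannot exclude shared handling of same-numbered mice. With a replicate block, 2 of the 58 were called for non-stroked NSG against WT, beside 3 in the same mice without the block, and 0 for Rag2-/- against WT. Of these, 2 of 6 mice of NSG and WT correlated best with their own number. All 19 alternatives for non-stroked Rag2-/- against WT and all 18 for delayed tacrolimus against stroked WT mice kept a count of 0. The TF libraries are shallower, and the genes named with means below 1 CPM have the largest counting error.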
